A study of Saccharomyces cerevisiae with 4 samples.

Results

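The 44 genes described here encode assembly factors of the large (60S) ribosomal subunit of Saccharomyces cerevisiae, proteins that build the subunit and then leave it. They were chosen by name, and a probe was taken where its platform symbol was that of a chosen gene. All 44 were found, each with a probe of its own printed as 2 spots, among 6388 gene probes in all. Of these probes 5326 carried a gene symbol and 1062 did not. Following textbook knowledge of when each factor acts, 35 members were counted as early, acting on nucleolar precursor particles, and 9 as late, acting on nucleoplasmic particles or staying bound up to export into the cytoplasm. The genes were listed by function, with earlier results of these data known.

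The arrays compared the transcripts of wild-type yeast in low and standard phosphate. The study was about an expression signature shared by slowly growing cells. It used these arrays to ask whether removing that signature helps to find targets of the transcription factor Pho4. All cells were BY4742, an alpha haploid used in many laboratories, wild type in genotype and carrying the centromeric plasmid YCpLac111. Standard phosphate cultures received 10 mM phosphate and low phosphate cultures 75 uM. Each group holds 2 arrays with a pair of colours each, called a and b as in the labels, and every array carried a common reference RNA of wild-type BY4742 cells, with no plasmid named for it. The sample was in Cy3 and the reference in Cy5 on the a arrays, with the reverse on the b arrays. The letter is therefore the dye orientation, and culture and dye cannot be told apart within a group. The labels also carry a number before the letter, the same on both arrays of a condition and different between the conditions. This number therefore cannot be separated from phosphate, and whether it marks a culture shared by both arrays was not tested. The submitters call the arrays of a condition independent cultures, whereas the methods describe biological replicates each repeated with the dyes exchanged, so the p-values may measure technical spread only. Because the cells were measured in bulk, fewer cells of a kind and less RNA per cell cannot be told apart.

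Values are log2 of sample over reference after background correction and normalization, so that 0 is the level in the reference, a difference of 1 is a doubling, and levels are compared only within a gene. Differences are low minus standard phosphate, and the same subtraction within the a arrays and within the b arrays is called the a pair and the b pair. The b pair shares no sample array with the a pair, but both rest on the same kind of reference. The low phosphate b array stands apart from the others, with an SD of 0.599 across all probes against 0.197 to 0.27 on the rest. Group medians are therefore also given within each pair and without that array. Transcripts of the phosphate response followed the labels, as the high-affinity transporter PHO84 read 2.26 and 2.21 in standard phosphate, against 3.47 and 3.92 in low phosphate. All 4 probes specific to alpha cells were above background on the 4 arrays. So were 5 of 6 probes for genes specific to cells of the opposite mating type. Detection over background alone therefore did not tell the mating types apart, but the strength of the signal differed. On standard phosphate a the alpha probes read 3351 to 18550 over background, and the other 6 probes read 28 to 117. The 25 general stress genes had a median difference of 1.56, which was 0.81 without low phosphate b and 2.31 without low phosphate a. Their array medians were -0.15 and 0.30 in standard phosphate, against 0.93 and 2.54 in low phosphate.

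Assembly of the 60S subunit begins in the nucleolus on a long precursor rRNA. Scaffold proteins, RNA helicases, methyltransferases and placeholder proteins join the growing particle in waves, fold the rRNA domains and prepare the removal of the internal spacers. GTPases and export factors then act as the particle leaves the nucleolus and the nucleus, and the last factors are released in the cytoplasm before the subunit can take part in translation. In budding yeast the genes for these factors are known as part of the ribosome biogenesis regulon, whose transcripts tend to move together with growth conditions.

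Every one of the 44 transcripts had a lower mean in low phosphate, as did 50% of all probes. The median difference was -0.96, a level 1.95-fold lower, against 0.0001 over all gene probes. The median was -0.43 without low phosphate b and -1.49 without low phosphate a. Single members lay between -1.33 for RPF2 and -0.14 for TIF6. In 43 of 44 members both low phosphate arrays were under both standard phosphate arrays, and TIF6 was the exception. Such a lower, non-overlapping reading was found for 26.8% of all probes, and a higher one, which no member had, for 26.5%. The mean was over 1.7-fold lower, the fold the study used as its threshold, in 35 members, and in 3.6% of all probes.

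**Figure D1:**
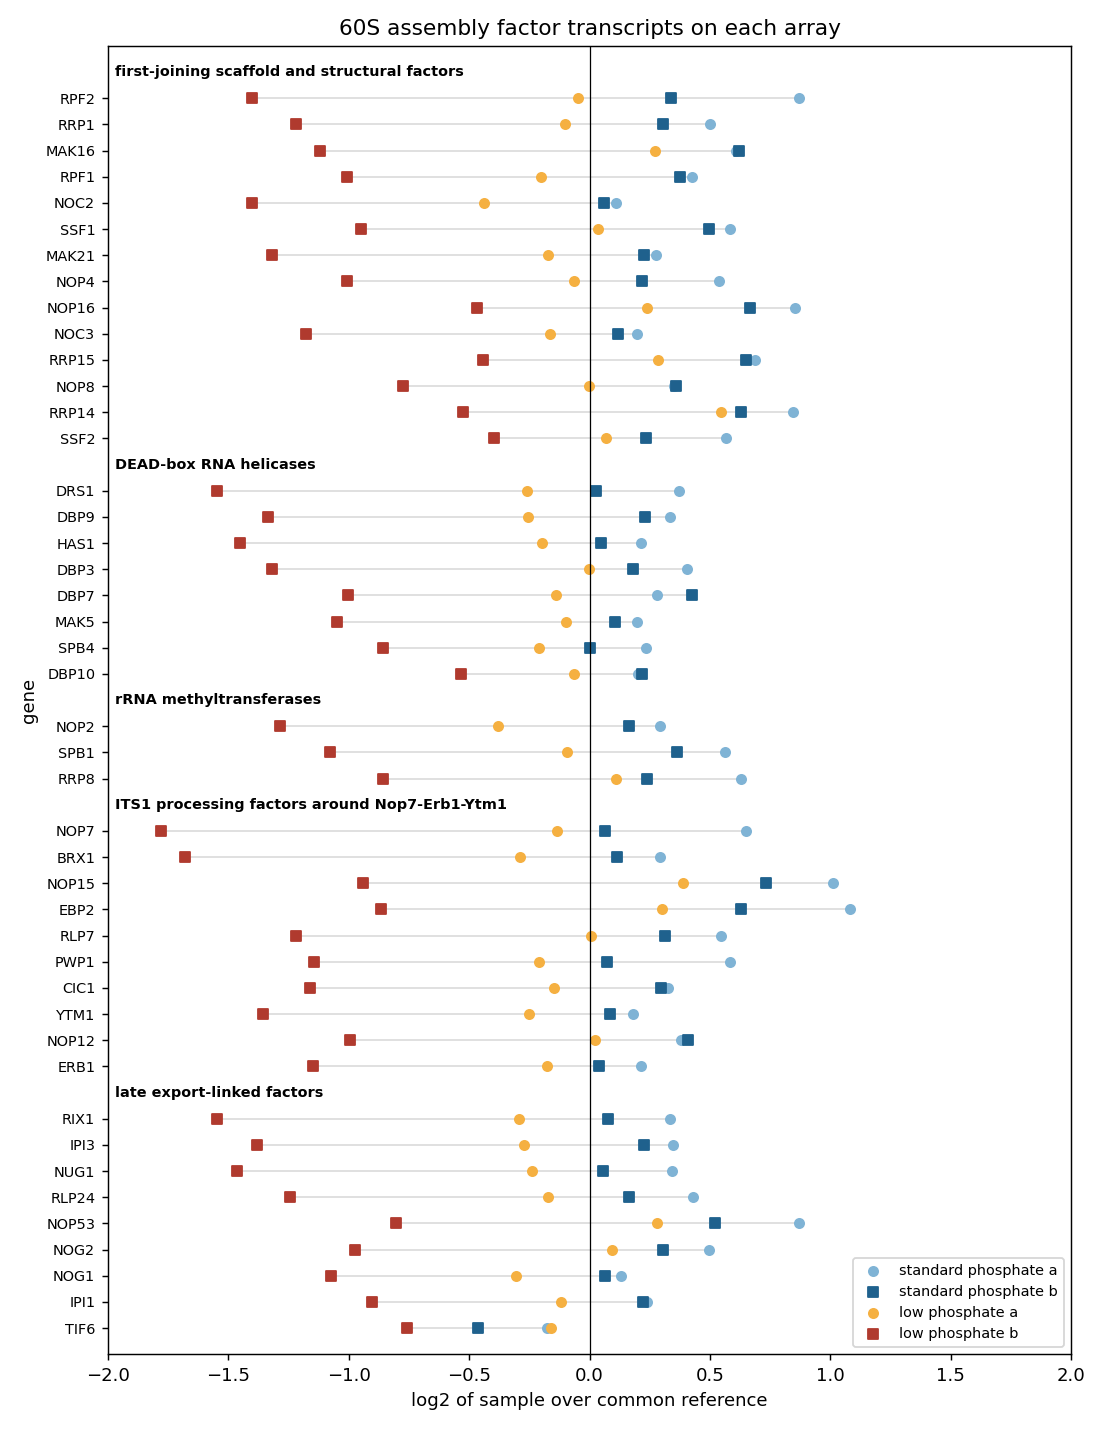
Level of each of the 44 transcripts (rows, grouped by role) as log2 of sample over the common reference (horizontal axis), with a point for each array. The low phosphate b array is the leftmost point in every row and the standard phosphate arrays lie to the right of both low phosphate arrays in every row but TIF6.

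The array medians of the 44 members show where the difference lies. They were 0.38 and 0.23 in standard phosphate a and b, -0.13 in low phosphate a and -1.10 in low phosphate b. In standard phosphate 43 members were above the reference on both arrays, against 34.6% of all probes. In low phosphate a 31 members were below the reference, against 49.3% of all probes. In low phosphate b all 44 were, against 50.5% of all probes. The standard phosphate cultures therefore stood over the reference, low phosphate a a little under it, and low phosphate b far under it.

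No member passed an adjusted p of 0.05 in the limma fit over all 6388 probes, where 0.0157% of probes, a single one, passed. Adjusted p-values of the members ran from 0.42 to 0.803 (limma, Benjamini-Hochberg). With the unadjusted p of that fit, 6 members passed, all lower, against 5.13% of all probes called lower and 6.34% called higher. These were RPF1, NOP16, NOP2, DBP7, SPB1 and NOC2, and all 6 were also over 1.7-fold lower. Both conditions together were met by 1.47% of all probes. An exact permutation test of 2 arrays against 2 cannot go below 0.333 (two-sided). The standard errors of the members' differences ran from 0.19 to 0.62. The arrays lay farther apart in low than in standard phosphate in all 44 members, a count not made over all probes. Low phosphate b also had the widest spread over all probes, with an SD of 0.599, so this need not be particular to the members. Counts with the unadjusted p turned on single arrays, since none of the 44 passed without standard phosphate a or without standard phosphate b, 44 passed without low phosphate a, and 33 without low phosphate b. The share of all probes called lower moved too, and was 0.751%, 0.924%, 20.2% and 6.57% in that order.

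The 14 members grouped as early-joining scaffold and structural factors had a median difference of -0.95, and all 14 had a lower mean. This median was -0.52 in the a pair and -1.34 in the b pair, -0.43 without low phosphate b and -1.40 without low phosphate a. RPF2, which with its partner Rrs1 brings the 5S particle to the precursor, had the largest difference of all 44 members. It read 0.87 and 0.34 in standard phosphate a and b, and -0.050 and -1.40 in low phosphate a and b. Its values did not overlap, with a difference of -1.33 (SE 0.52, adjusted p = 0.42, limma) that was -0.92 in the a pair and -1.74 in the b pair.

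RRP1, MAK16 and RPF1 encode proteins that sit together on the precursor in a complex with Nsa1. RRP1 read 0.50 and 0.31 in standard phosphate, against -0.10 and -1.22 in low phosphate, a difference of -1.06 (SE 0.41). MAK16 read 0.61 and 0.62 in standard phosphate, against 0.27 and -1.12 in low phosphate, a difference of -1.04 (SE 0.50). RPF1, the partner of Mak16, had a difference of -1.01 (SE 0.30, adjusted p = 0.42, limma). In all of them low phosphate was under standard phosphate on both arrays, but MAK16 was still above the reference in low phosphate a and its a pair difference was only -0.34. NSA1, which is not a member and was looked at because of this complex, had a difference of -0.85 (SE 0.30).

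Noc2 pairs first with Noc1, encoded by MAK21, and later with Noc3. The differences of NOC2, MAK21 and NOC3 were -1.004 (SE 0.35), -0.99 (SE 0.42) and -0.83 (SE 0.37). NOP16, a protein of early precursor particles, had a difference of -0.87 (SE 0.27), and NOP4, an RNA-binding protein, -0.91 (SE 0.36). RRP15, NOP8 and RRP14 had smaller differences of -0.75, -0.74 and -0.73. Across these genes the readings were lower in both pairs.

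The paralogs SSF1 and SSF2 encode closely related proteins of the same step. SSF1 read 0.58 and 0.49 in standard phosphate, against 0.035 and -0.95 in low phosphate. SSF2, the smallest difference of this group, read 0.57 and 0.23 in standard phosphate, against 0.068 and -0.40 in low phosphate. Neither gene's groups overlapped. The differences were -0.995 (SE 0.36) for SSF1 and -0.56 (SE 0.22) for SSF2. In the a pair they were nearly alike at -0.55 and -0.50, and in the b pair they were -1.44 and -0.63. Whether the probes of these paralogs also bind each other's transcript cannot be judged here, since probe sequences were not used.

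The 8 DEAD-box RNA helicases, which unwind and remodel the precursor rRNA, all had a lower mean, with a median difference of -0.94. It was -0.41 in the a pair and -1.46 in the b pair, -0.33 without low phosphate b and -1.47 without low phosphate a. DRS1 read 0.37 and 0.027 in standard phosphate, against -0.26 and -1.54 in low phosphate, a difference of -1.10 (SE 0.48). DBP9 read 0.34 and 0.23 in standard phosphate, against -0.26 and -1.33 in low phosphate, a difference of -1.08 (SE 0.39). HAS1, needed for both ribosomal subunits, read 0.21 and 0.049 in standard phosphate, against -0.20 and -1.45 in low phosphate, a difference of -0.95 (SE 0.46). For these 3 genes the low phosphate b array was more than 1 log2 unit under low phosphate a.

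DBP10 had the smallest difference among the helicases, and read 0.20 and 0.22 in standard phosphate, against -0.065 and -0.53 in low phosphate. Its groups did not overlap, and its difference of -0.51 (SE 0.19) had the smallest error of all 44 members. DBP7 was the helicase called with the unadjusted p, at -0.92 (SE 0.32). The remaining helicases were DBP3 at -0.95, MAK5 at -0.73 and SPB4 at -0.65.

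The methyltransferases of the large subunit rRNA were read one by one, as there are only 3. NOP2, which methylates a cytosine of the rRNA and is needed for processing, read 0.29 and 0.17 in standard phosphate, against -0.38 and -1.29 in low phosphate. SPB1, which methylates riboses, read 0.56 and 0.37 in standard phosphate, against -0.092 and -1.08 in low phosphate. RRP8, which methylates an adenine, read 0.63 and 0.24 in standard phosphate, against 0.11 and -0.86 in low phosphate. No values overlapped between groups, and RRP8 alone stayed above the reference in low phosphate a. The differences were -1.06 (SE 0.34) for NOP2, -1.05 (SE 0.37) for SPB1 and -0.81 (SE 0.38) for RRP8, with adjusted p-values (limma) of 0.42, 0.42 and 0.421. Their median of -1.05 was -0.66 in the a pair and -1.44 in the b pair, -0.56 without low phosphate b and -1.51 without low phosphate a.

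The Nop7-Erb1-Ytm1 complex and the factors that act around it are needed to trim the first internal spacer. The 10 members of this group had a median difference of -1.02, and all 10 had a lower mean. Within the a pair it was -0.56 and within the b pair -1.48, with -0.47 left without low phosphate b and -1.57 without low phosphate a. NOP7 read 0.65 and 0.064 in standard phosphate, against -0.13 and -1.78 in low phosphate, a difference of -1.31 (SE 0.62). That is the largest error of all 44 members, and NOP7 was also the member whose arrays lay farthest apart within both groups, by 0.585 in standard phosphate and 1.65 in low phosphate. Its complex partners differed less, with YTM1 at -0.93 (SE 0.40) and ERB1 at -0.79 (SE 0.36). ERB1, the smallest difference of the group, read 0.21 and 0.039 in standard phosphate, against -0.18 and -1.15 in low phosphate, without overlap.

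BRX1 and EBP2 encode proteins that bind the precursor early as partners. BRX1 read 0.29 and 0.11 in standard phosphate, against -0.29 and -1.68 in low phosphate, a difference of -1.19 (SE 0.51). EBP2 had a difference of -1.14 (SE 0.45). NOP15, an RNA-binding protein near the second spacer, read 1.01 and 0.73 in standard phosphate, against 0.39 and -0.94 in low phosphate, a difference of -1.15 (SE 0.49). NOP15 was thus well above the reference in standard phosphate and still above it in low phosphate a. RLP7, which resembles a ribosomal protein, read 0.54 and 0.32 in standard phosphate, against 0.0044 and -1.22 in low phosphate, a difference of -1.04 (SE 0.45). The others were PWP1 at -1.01, CIC1 at -0.97 and NOP12 at -0.88.

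Of the 9 late factors all had a lower mean as well, with a median difference of -0.96. Its value was -0.58 in the a pair and -1.33 in the b pair, -0.42 without low phosphate b and -1.50 without low phosphate a. RIX1, IPI1 and IPI3 encode the complex that helps the particle through its nucleoplasmic checkpoint. RIX1 read 0.33 and 0.076 in standard phosphate, against -0.29 and -1.55 in low phosphate, a difference of -1.12 (SE 0.46). IPI3 read 0.34 and 0.23 in standard phosphate, against -0.27 and -1.38 in low phosphate, a difference of -1.11 (SE 0.40). The third gene of the complex, IPI1, had a difference of -0.74 (SE 0.29). Low and standard values did not overlap in any of these.

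The GTPases of this stage gave values of the same order. NUG1 read 0.34 and 0.057 in standard phosphate, against -0.24 and -1.46 in low phosphate, a difference of -1.05 (SE 0.45). NOG2 and NOG1 had differences of -0.84 (SE 0.39) and -0.79 (SE 0.28). NOP53, which brings the exosome to the second spacer, had a difference of -0.96 (SE 0.41). RLP24, a placeholder that leaves in the cytoplasm, read 0.43 and 0.16 in standard phosphate, against -0.17 and -1.24 in low phosphate, a difference of -1.005 (SE 0.40).

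TIF6 was unlike the other 43 members in that its groups overlapped. Tif6 binds the face of the particle that would meet the small subunit, and keeps both apart until it is removed in the cytoplasm. Its transcript read -0.18 and -0.46 in standard phosphate, against -0.16 and -0.76 in low phosphate. It was also the only member under the reference on both standard phosphate arrays. The difference was -0.14 (SE 0.25, adjusted p = 0.803, limma), with a 95% interval from -0.83 to 0.55, which holds 0 and also the differences of 12 other members. In the a pair it was 0.015, the only value above 0 among the members of that pair, and in the b pair -0.30. Without low phosphate b the difference of TIF6 was 0.16, without standard phosphate a it was 0.0021, and without low phosphate a it was -0.44. Without TIF6 the other 43 members lay between -1.33 and -0.51.

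**Figure D2:**
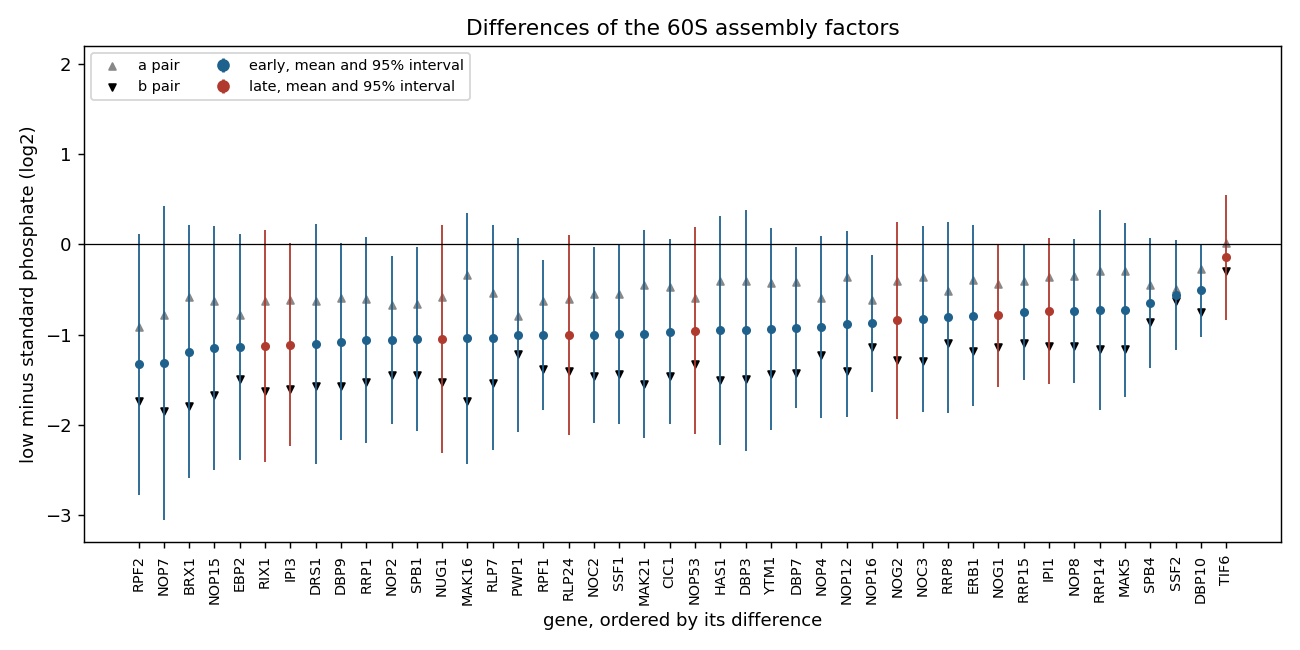
Low minus standard phosphate (log2, vertical axis) of each of the 44 transcripts in order of size, as the mean with its 95% interval from the limma fit, with the a pair and the b pair as separate points. The b pair point lies under the a pair point for each gene, and TIF6 lies at the right end with -0.14.

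Early and late factors were then set side by side. The median difference was -0.97 over the 35 early members and -0.96 over the 9 late members, so that early minus late was -0.0077. Within the a pair the medians were -0.52 and -0.58, and within the b pair -1.44 and -1.33. Without low phosphate b they were -0.44 and -0.42, and without low phosphate a -1.49 and -1.50. The late factors were thus the lower of the 2 stages in the a pair and the early factors in the b pair, by 0.056 and 0.116. On the single arrays early minus late was between -0.046 and 0.075. The sign of the difference also changed with the membership, to 0.038 when NOG1, TIF6 and RLP24, which bind before they leave late, were left out, while it was -0.081 when NOC3 was counted as late. The ranges of the stages overlapped, running from -1.33 to -0.51 for early members and from -1.12 to -0.14 for late members.

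The size of the difference varied more between the array pairs than between the roles. In the a pair 43 members were lower, where 49.7% of all probes were, with a median of -0.53. In the b pair all 44 were lower, where 50.3% of all probes were, with a median of -1.43. Over 1.7-fold lower readings were found for 4 members in the a pair, against 1.35% of all probes, and for 41 in the b pair, against 7.2%. The b pair difference was the more negative in each of the 44 members, and in 50.3% of all probes. Among the members the gap had a median of 0.868, from 0.128 in SSF2 to 1.40 in MAK16. Low phosphate b was under low phosphate a in every member, and in 48.9% of all probes. In the members this gap ran from 0.463 in SSF2 to 1.65 in NOP7, whereas the standard phosphate arrays differed by a median of 0.182 in size. The stress genes moved with these arrays in the opposite direction, with medians of 1.01 in the a pair and 2.14 in the b pair. Of the 25, only HSP12 was lower in the a pair, at -1.16, and it was 1.65 higher in the b pair. The part of the stress genes in the result was not tested.

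Across the 44 genes, which are not independent replicates and share the arrays, the a pair and b pair differences correlated with r = 0.608 (Spearman's rho = 0.515), and with r = 0.475 without TIF6. Over all gene probes the same correlation was higher, at r = 0.685 (rho = 0.61). Ranked among all probes, 25 members were in the lowest 5% of both pairs, where 2.57% of all probes were. Levels of the members correlated with r = 0.791 between the standard phosphate arrays, against 0.656 over all probes. Between the low phosphate arrays the members gave r = 0.644, against 0.726 over all probes. Across the members low phosphate a was closer to standard phosphate a and b, at r = 0.766 and 0.772, than to low phosphate b. The signal of every member was above background on all 4 arrays, so none of these values rests on an undetected spot. Some members were dim, however, with NOG1 only 49 over background on low phosphate b. The reference channel was dim too on standard phosphate b, at 38.5 over background for NOP4 and 41.3 for NOG1. With a background correction offset of 0 in place of 50, the differences of NOG1, NOP4 and MAK5 were -1.22, -1.28 and -1.04. The members' median was then -1.10.

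**Figure D3:**
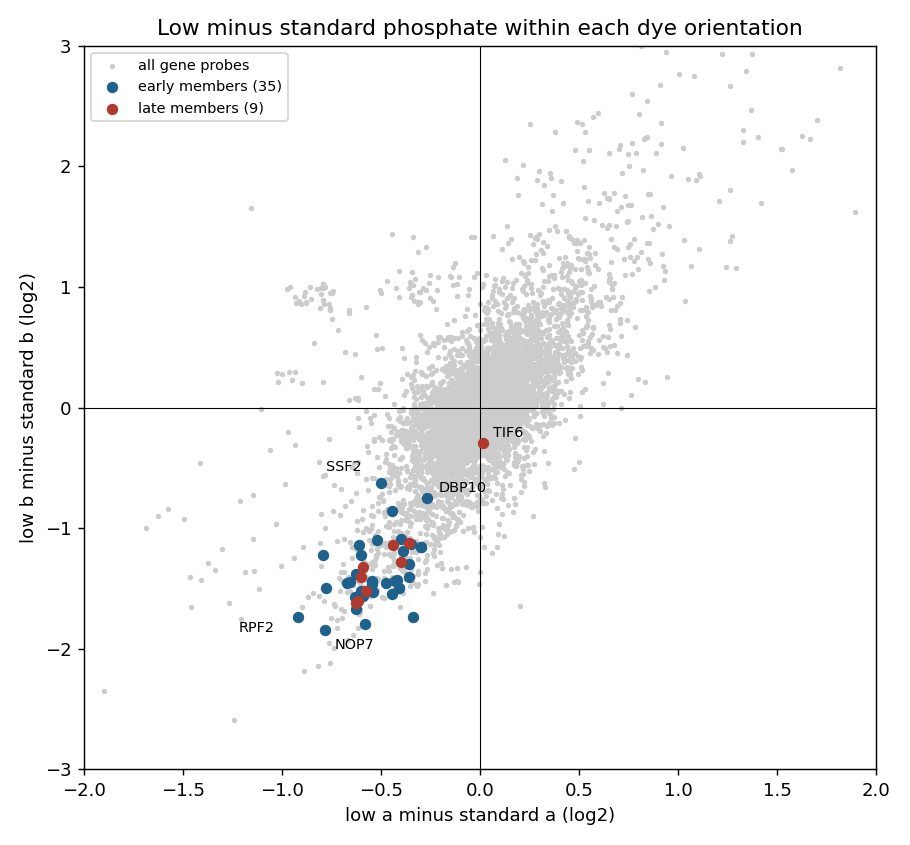
Difference in the a pair (horizontal axis, log2) against that in the b pair (vertical axis, log2) for all gene probes in grey and for early and late members in colour. Axes are limited to 2 and 3 log2 units, which leaves 19 of 6388 probes outside, and the members form a cloud at the lower left with only TIF6 to the right of 0.

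Other factors of the same pathway were read from a further list of 34 genes, of which 33 were found under their symbols, EFL1 not being among the probe names used here. Of the 33, 32 had a lower mean, with a median of -0.85. That median was -0.38 in the a pair and -1.21 in the b pair, -0.30 without low phosphate b and -1.29 without low phosphate a. A lower, non-overlapping reading was found for 29, where 26.8% of all probes had it, and a higher one for MTR2. With the unadjusted p 6 passed, all lower, where 5.13% of all probes did. The 13 nucleolar factors had a median of -0.88, the 12 late nuclear and export factors -0.84, and the 8 cytoplasmic factors -0.69. In the a pair these were -0.44, -0.40 and -0.30, and in the b pair -1.26, -1.23 and -1.06. Without low phosphate b they were -0.42, -0.31 and -0.26, and without low phosphate a -1.32, -1.34 and -1.12. Among nucleolar factors PUF6, a Pumilio-type RNA-binding protein, had the largest difference, at -1.19 (SE 0.35), followed closely by NIP7, also at -1.19. MRT4, a placeholder for the stalk protein P0, led the cytoplasmic factors at -1.03 (SE 0.50), followed by YVH1, whose product releases it, at -0.89 (SE 0.29).

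The late nuclear and export factors differed most among themselves. ARX1, an export factor bound at the tunnel exit, read 0.29 and 0.090 in standard phosphate, against -0.44 and -1.90 in low phosphate, a difference of -1.36 (SE 0.53) that was larger than that of any of the 44 members. SDA1 followed at -1.22 (SE 0.59). MTR2 was the gene with a higher mean, reading -0.053 and -0.022 in standard phosphate, against 0.26 and -0.013 in low phosphate, a difference of 0.16 (SE 0.13, adjusted p = 0.558, limma). Its partner MEX67, with which it also exports mRNA, read 0.027 and -0.22 in standard phosphate, against 0.059 and -0.46 in low phosphate, a difference of -0.10 (SE 0.22). LAS1 and GRC3, which together cut and phosphorylate the second spacer, had small differences of -0.27 (SE 0.18) and -0.38 (SE 0.31). MEX67, LAS1 and GRC3 were singled out after their values were seen.

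Genes for the assembly of the small (40S) subunit were read in the same way as a description, without a test of how they differ from the 44 members. All 52 measured factors had a lower mean, with a median of -0.86 that was -0.41 in the a pair and -1.26 in the b pair, -0.37 without low phosphate b and -1.33 without low phosphate a. ENP2 and DHR2 had the largest differences, at -1.27 (SE 0.54) and -1.20 (SE 0.36). The members' medians were -0.53 and -1.43 in these pairs.

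Genes for the proteins that remain in the 60S subunit were set beside the genes for its assembly factors, also without a test. The 67 ribosomal protein genes had a median difference of -0.26, with 66 lower in the mean. That median depended on the processing, and was -0.60 with spike-in loess, -0.51 with median centring, -0.15 with scaling between arrays, -0.098 with the deposited log2 ratios, -0.58 without low phosphate a and 0.0058 without low phosphate b. In the a pair their median was 0.025 with 29 of 67 lower, and in the b pair it was -0.54. A lower, non-overlapping reading was found for 18 of 67, a share close to the 26.8% of all probes, and for 43 of 44 assembly factors. Near-identical copies make up most of these genes, and their probes may bind each other's transcripts. The placeholder RLP24 was set against RPL24A and RPL24B, which encode the protein that takes its place, and its difference minus theirs was -0.74 and -0.53. For RLP7 minus RPL7A it was -0.84, and RPL7B was not among the probe names used here. In these comparisons the assembly factor had the more negative difference in both pairs.

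**Figure D4:**
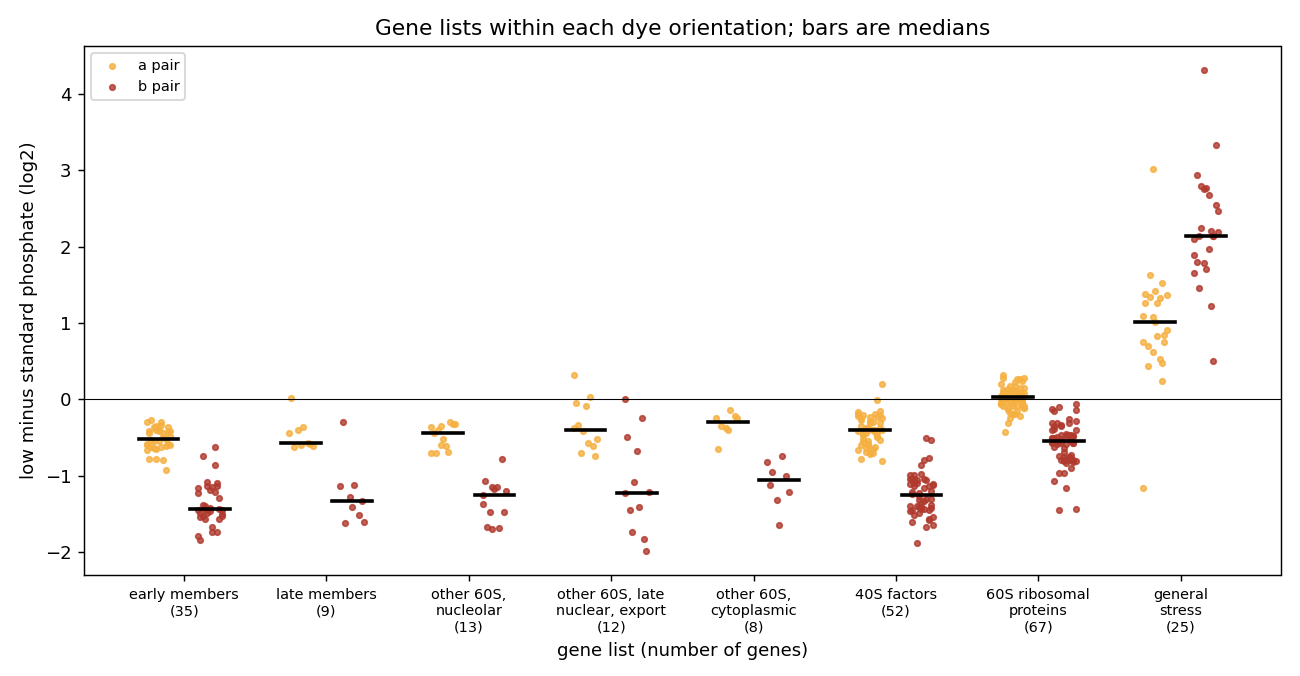
Low minus standard phosphate (log2, vertical axis) within the a pair and within the b pair for each gene (points) of the early and late members, of the other 60S factors, of 40S factors, of 60S ribosomal protein genes and of general stress genes, with bars at the medians. Both stages of members lie lower in the b pair than in the a pair, and ribosomal protein genes centre near 0 in the a pair, at 0.025.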

How the data were processed

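RNA of 4 cultures or technical repeats of them, 2 arrays per group, was measured on spotted two-colour oligonucleotide arrays of 15552 spots in 48 blocks, 12776 of them gene spots. The deposited scanner files hold mean spot intensity and median background intensity per channel, which the authors did not normalize. The authors also deposited log2 ratios per spot, made by print-tip loess (span 0.4) without background subtraction and corrected for dye bias. A final table of the authors' own condition-level log2 values and p-values (limma 2.12.0 in the submitters' processing notes) was not used.

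Here background was corrected by normexp (offset 50), each array was normalized by loess (span 0.3) on gene spots, and the ratios were turned to sample over reference and averaged over the 2 spots of each probe. Group means were fitted to all 6388 probes with lmFit and eBayes (limma 3.58.1, R 4.3.3), two-sided, with Benjamini-Hochberg adjustment over all probes, 2 residual and 1.98 prior degrees of freedom. A spot was above background when its sample signal exceeded local background by 2 SDs. The number of arrays limits the precision. Median gene spot signals were 254 to 383 in the sample channel and 131 to 703 in the reference channel. The fit was tested on simulated data.

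The members and lists were chosen with earlier results of these data known. Values on every array are given for the 3 largest differences and the smallest in each role group, for all methyltransferases, SSF1, SSF2, RLP7 and RLP24, and of other lists the 2 largest in each direction are named. Groups came from the labels. Alternatives were other background corrections and normalizations, spike-in loess, scaling, other moderation, dim probes left out, the deposited log2 ratios, the authors' steps, a replicate block, the first spot and each array left out.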

Additional observations from a re-analysis of the deposited data

How the results depend on the processing

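The direction of the members was the same under all 17 settings, with 43 or 44 of 44 lower, a median between -1.49 and -0.43, and 43 not overlapping (44 without low phosphate a). TIF6 was the highest member in every setting and turned to 0.096 with scaling between arrays, 0.0021 without standard phosphate a and 0.16 without low phosphate b. Leaving out each array gave TIF6 a range from -0.44, with an unadjusted limma p of 0.0209 without low phosphate a, to 0.16. Counts with the unadjusted p, 6 members and 6 also over 1.7-fold lower, moved widely. They were 17 and 17 with a normexp offset of 0, 13 and 12 without background subtraction, 5 and 3 with print-tip loess, 9 and 9 with median centring, 30 and 27 with spike-in loess, 42 and 27 with scaling between arrays, 20 and 15 with trend and robust moderation, 11 and 10 with dim probes left out, and 14 and 12 with the first spot only. The share of all probes called lower with the unadjusted p was 5.13% in the fit reported, and in the same order 5.12%, 5.06%, 4.92%, 1.55%, 4.51%, 10%, 5.67%, 5.21% and 5.24%. The deposited log2 ratios gave 6 and 4 and the authors' steps 7 and 5, where 4.88% and 5.03% of all probes were called lower. With the letter as a replicate block they were 26 and 23, where 6.81% of all probes were called lower. The letters are not stated to pair the cultures, and with 2 pairs the deviations correlated with r = 0.277. Leaving out an array gave 0 to 44 and 0 to 42 members, and a median of the late members from -1.50 (without low phosphate a) to -0.42 (without low phosphate b). A group left with a single array was taken to have the spread of the other. Adjusted p-values passed for no member except for 43 without low phosphate a, where 2030 probes passed. The causes were not tested. Early minus late changed sign between settings, from -0.13 to 0.10. The 60S ribosomal protein median was -0.60 with spike-in loess and 0.0058 without low phosphate b. A planned count of promoter motifs was not run, since promoter sequences were not used here.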
